A study of Bos taurus with 10 samples.

Results

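The genes described here are 8 regulators and outputs of the p53 pathway and of the mitochondrial route of apoptosis, chosen by symbol: MDM2, CDKN1A, BAX, BCL2L1, MCL1, BBC3, PMAIP1 and GADD45A. All 8 were found, each on a single line of an expression table with 28781 gene symbols, and all 8 were among the 11761 genes tested, which had a mean of at least 1 FPKM (fragments scaled for gene length and for the size of the library) over the 10 libraries. They were followed across bovine embryos in which H1FOO, the linker histone of the oocyte, had been targeted. KD embryos had received small interfering RNA against H1FOO as zygotes, and NC embryos negative control small interfering RNA. Poly(A) RNA was sequenced at the morula stage (5.5 days post insemination, 3 KD and 3 NC libraries) and at the 8/16-cell stage (4 days post insemination, 2 KD and 2 NC libraries). All embryos were therefore injected, and no library of uninjected embryos was used here. The breed, and the number of embryos behind a library, are not given in the sources used here.

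The p53 protein is a transcription factor that accumulates after DNA damage and other stress. MDM2, an E3 ubiquitin ligase, marks p53 for degradation and is itself a p53 target gene. Other targets halt the cell cycle (CDKN1A, an inhibitor of cyclin-dependent kinases, and GADD45A, a stress-response protein) or open the outer mitochondrial membrane. BAX forms the membrane pore, and its guardians BCL2L1 and MCL1 hold it closed. BBC3 (PUMA) and PMAIP1 (NOXA) are BH3-only proteins, of which BBC3 neutralises both guardians and PMAIP1 binds MCL1. CDKN1A and GADD45A are also induced without p53, and the amount of these RNAs says nothing about protein or about cell death. In whole embryos, fewer cells expressing a gene and less RNA per cell cannot be told apart, nor can synthesis of new RNA and persistence of RNA inherited from the oocyte.

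H1FOO stood at 0.0610, 0.191 and 0.251 FPKM in KD morulae, against 0.294, 1.05 and 2.17 FPKM in NC morulae. Embryos of 8/16 cells had 0.649 and 0.0736 FPKM after KD, against 50.8 and 10.8 FPKM in NC embryos, so that the target was lower in every KD library of its stage. All 8 embryo markers examined, POU5F1, NANOG and CDX2 among them, were above 0 in every library. Of 17 markers of cumulus and granulosa cells, 12 to 16 were above 0 in a library, and they summed to between 63.3 and 173 FPKM. SERPINE2 (23.4 to 75.8 FPKM) reached the highest value of these 17, and FSHR was at 0 in all libraries. Of 8 blood markers, HBA (94.8 to 239 FPKM) and CSF1R (24.3 to 46.1 FPKM) held nearly all of the sum, which was 167 to 285 FPKM in KD and 138 to 195 FPKM in NC morulae, and 121 to 144 FPKM in KD and 134 to 146 FPKM in NC 8/16-cell embryos. The leukocyte marker PTPRC did not exceed 0.117 FPKM and HBB 1.59 FPKM in any library. Of 7 sperm and testis markers, TNP1 was the highest (up to 10.2 FPKM), and the part of these lists in the results below was not tested. FPKM summed to between 345464 and 669836 in a library, and the highest sum, that of KD 8/16-cell replicate 1, had 27.1% of its total in the short MIR2887 genes. In KD 8/16-cell replicate 2 this share was 8.06%, and in every library of the other groups it was 0%. The read depth of the libraries is unknown, so no counting interval can be given. Nothing in the sources says that replicates came from separate collections of oocytes, so the p-values measure the spread between these libraries only.

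Single values of the 8 genes lay between 0.430 FPKM (BBC3, KD 8/16-cell replicate 2) and 189 FPKM (GADD45A, the same library). In KD morulae the order by mean FPKM was MCL1 (73.5 ± 4.3, SD, n = 3), GADD45A (51.7 ± 19.7), BAX (31.6 ± 12.4), BCL2L1 (25.9 ± 6.4), CDKN1A (12.2 ± 7.2), PMAIP1 (11.3 ± 0.22), MDM2 (7.63 ± 1.86) and BBC3 (1.39 ± 0.38). In NC morulae BAX (52.9 ± 10.2) stood above GADD45A (33.5 ± 9.0), and PMAIP1 (14.9 ± 4.1) and MDM2 (7.91 ± 1.29) above CDKN1A (4.28 ± 2.95). The neighbours BAX and BCL2L1 in KD morulae, and GADD45A and BCL2L1 in NC morulae, were closer than their SDs. CDKN1A and PMAIP1 in KD morulae were closer than the SD of CDKN1A but not that of PMAIP1. BBC3 was the lowest in all 4 groups, and its mean over all libraries, 1.01 FPKM, only just reached the level required for testing. At the 8/16-cell stage GADD45A was the highest of the 8, at 172 ± 24 FPKM in KD and 133 ± 7 FPKM in NC embryos (n = 2 each).

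**Figure D1:**
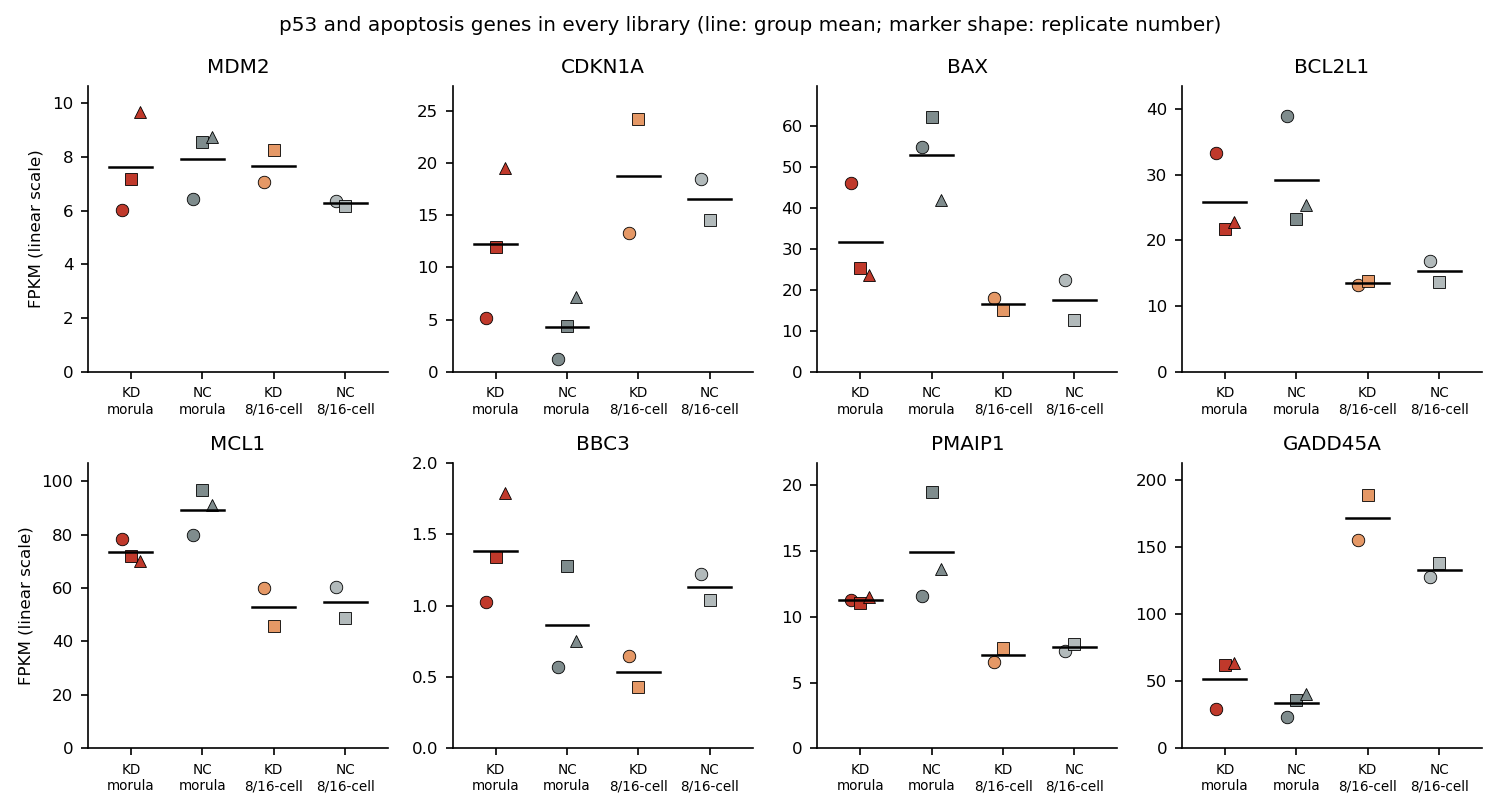
FPKM of the 8 genes in every library, on linear axes that start at 0 and differ between panels; points are libraries, marker shapes are replicate numbers within a stage and lines are group means. CDKN1A and GADD45A were lowest in the NC morulae (means of 4.28 and 33.5 FPKM) and BAX and MCL1 highest there (52.9 and 89.1 FPKM).

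In morulae, the cell-cycle inhibitor CDKN1A had a higher mean in KD than in NC embryos and the pore protein BAX a lower one. Neither difference passed when the libraries were treated as independent groups. Both passed, together with a higher GADD45A, when KD and NC libraries of the same replicate number were compared (the blocked fit). The labels do not say what a number marks. The pairing was taken from correlations between these same libraries (0.37, 0.325 and 0.312), so the blocked p-values rest on a choice made from the data. MDM2, the p53 target that feeds back on p53 itself, had nearly equal means in the treatments. No more than 3 of the 8 genes passed in either fit, where 0.697% of all genes passed without the block and 11.9% with it.

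CDKN1A was at 5.20, 11.9 and 19.5 FPKM in KD morula replicates 1, 2 and 3, against 1.25, 4.44 and 7.14 FPKM in NC replicates 1, 2 and 3. The lowest KD value lay below the highest NC value, so the groups overlapped, and number 1 was the lowest in both. Within each replicate number the KD library was higher, by 4.16-fold, 2.69-fold and 2.73-fold, and the differences of log2(FPKM + 1) were 1.46, 1.25 and 1.33. The log2 difference was 1.35 (95% interval 0.24 to 2.46, SE 0.50, limma adjusted p = 0.165 over all genes). Blocking on the replicate number gave an SE of 0.22 and an adjusted p of 0.00799. In blocked fits that left out the libraries of number 1, 2 or 3 in turn, CDKN1A still passed, with adjusted p-values of 0.0481, 0.0329 and 0.0435.

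GADD45A, which binds cell-cycle and DNA repair proteins after stress, was at 29.0, 62.2 and 63.8 FPKM in KD morulae, against 23.4, 36.3 and 40.7 FPKM in NC morulae. The groups overlapped through KD replicate 1, while within each number the KD library was higher, by 1.24-fold, 1.71-fold and 1.57-fold. The log2 difference was 0.57 (95% interval -0.10 to 1.23, SE 0.30, limma adjusted p = 0.304), and the blocked adjusted p was 0.0336. Leaving out the libraries of any 1 number ended the blocked call for GADD45A.

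BAX was at 45.9, 25.4 and 23.6 FPKM in KD morulae, against 54.7, 62.0 and 41.8 FPKM in NC morulae. KD replicates 2 and 3 lay below all NC libraries and KD replicate 1 within them. Within numbers the KD to NC ratios were 0.84, 0.41 and 0.56. The log2 difference was -0.77 (95% interval -1.39 to -0.14, SE 0.28, limma adjusted p = 0.159), and the blocked adjusted p was 0.0431. Without KD morula replicate 1, BAX passed also without a block (-1.06, adjusted p = 0.0446). The blocked call was kept without the libraries of number 1 (adjusted p = 0.0469) and lost without those of number 2 or 3.

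**Figure D2:**
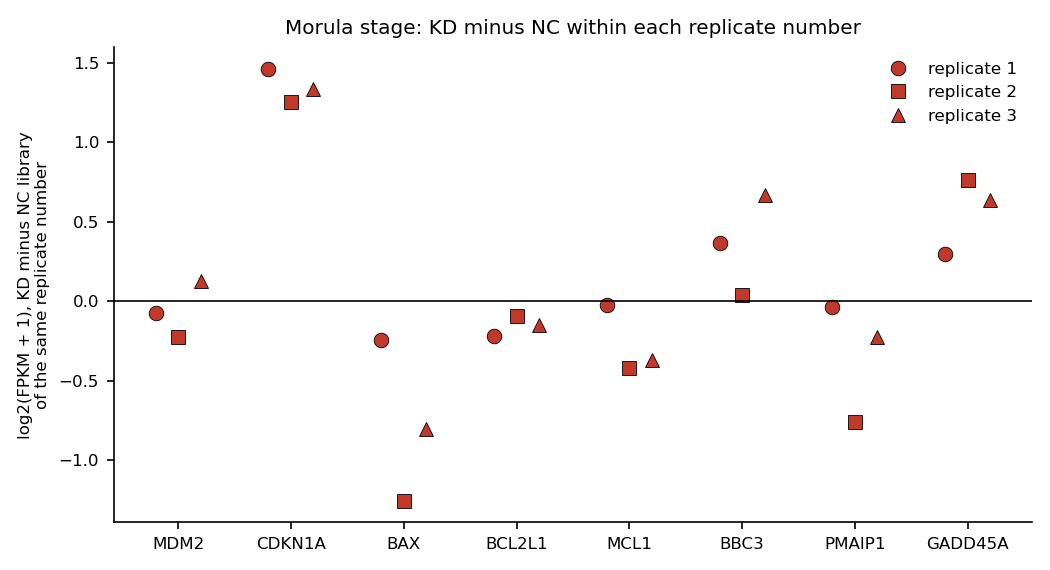
Differences of log2(FPKM + 1) between the KD and the NC morula library of the same replicate number, 3 points per gene. All 3 points of CDKN1A lie between 1.25 and 1.46, those of GADD45A above 0 and those of BAX below 0, while MDM2 lies on both sides of 0.

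The guardians of the mitochondrial membrane were nearer to equal in the treatments. MCL1, a short-lived protein needed by early embryos in the mouse, was at 78.4, 71.9 and 70.2 FPKM in KD morulae, against 79.8, 96.5 and 91.0 FPKM in NC morulae. Every KD library was below every NC library, but the log2 difference of -0.27 (SE 0.16) did not pass (limma adjusted p = 0.363, blocked 0.211). BCL2L1, which encodes BCL-XL, was at 33.3, 21.7 and 22.7 FPKM in KD morulae, against 39.0, 23.3 and 25.4 FPKM in NC morulae. Its groups overlapped, and the highest value of either treatment was that of replicate 1. The log2 difference was -0.16 (95% interval -0.66 to 0.34, limma adjusted p = 0.723).

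The BH3-only genes lay on different sides. PMAIP1, whose product binds MCL1, was at 11.2, 11.1 and 11.5 FPKM in KD morulae, against 11.6, 19.5 and 13.6 FPKM in NC morulae. The KD libraries were nearly identical and all below the NC libraries, and the difference of -0.34 (SE 0.19) did not pass (limma adjusted p = 0.329, blocked 0.232). BBC3 was at 1.03, 1.34 and 1.79 FPKM in KD morulae, against 0.572, 1.28 and 0.755 FPKM in NC morulae, with overlapping groups. Its log2 difference was 0.36 (SE 0.23, limma adjusted p = 0.396), at a level where a value may rest on few fragments.

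MDM2 was at 6.05, 7.17 and 9.67 FPKM in KD morulae, against 6.42, 8.55 and 8.76 FPKM in NC morulae. The KD range enclosed the NC range. The log2 difference was -0.06 (95% interval -0.50 to 0.38, limma adjusted p = 0.896), which leaves room for a change of up to about that size in either direction.

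For the whole morula comparison, 0 of the 8 genes passed in limma, where 0.697% of all genes did (17 higher and 65 lower in KD, and 28 and 41 after quantile normalization). At an unadjusted p under 0.05 there were 2 of 8, CDKN1A and BAX, beside 2491 of the 11761 genes, a share near that of the 8. In the blocked fit 3 of 8 passed, where 11.9% of all genes did. KD and NC libraries did not overlap for 2 of 8, MCL1 and PMAIP1, where this held for 23.8% of all genes, a share close to that of the 8. The median log2 difference of the 8 was -0.11, beside -0.08 over all genes tested. In data simulated for this comparison, with independent noise in each library, the unblocked test recovered 38% of genes given a log2 change of 1. This share is an average over genes of unlike spread and was not computed for the 8 genes. A difference that did not pass is therefore not shown to be absent.

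The 18S ribosomal RNA gene RN18S1 had a higher mean in KD than in NC morulae, at 9053, 8553 and 11581 FPKM in KD and 2704, 2983 and 8611 FPKM in NC libraries, which overlapped through NC replicate 3. This NC library also had the highest CDKN1A and GADD45A and the lowest BAX of the NC morulae. KD morula replicate 3, the highest of the KD morulae in RN18S1, was likewise highest in CDKN1A and GADD45A and lowest in BAX. KD morula replicate 1 had more RN18S1 than replicate 2, yet lower CDKN1A and GADD45A and higher BAX. At 8/16 cells, KD replicate 1 stood to KD replicate 2 in the same way. NC 8/16-cell replicate 2 had more RN18S1 than replicate 1 (9367 against 3383 FPKM), with lower CDKN1A and BAX and higher GADD45A. With RN18S1 as a covariate, without a block, the log2 differences of CDKN1A (0.77), BAX (-0.29) and GADD45A (0.26) kept their signs and were smaller by over 1.5 times, with limma adjusted p-values of 0.663, 0.745 and 0.815. That fit used a single slope for RN18S1 over both stages. Because RN18S1 itself differed in mean between KD and NC morulae, its part and that of the treatment cannot be told apart by this fit. The part of RN18S1 in the blocked result was not tested. The 17 markers of cumulus and granulosa cells, somatic cells around the oocyte, summed to 63.3 to 138 FPKM in KD and 74.4 to 85.2 FPKM in NC morulae, with 15 to 16 of them above 0 in KD and 12 to 15 in NC libraries. Their part was not tested either.

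At the 8/16-cell stage none of the 8 genes passed, and CDKN1A and BAX, which differed most in morulae, had small differences on mixed sides. CDKN1A was at 13.3 and 24.2 FPKM in KD embryos, against 18.5 and 14.5 FPKM in NC embryos. The KD values enclosed the NC values, and the log2 difference was 0.12 (95% interval -1.23 to 1.48). BAX was at 17.9 and 15.1 FPKM in KD embryos, against 22.3 and 12.6 FPKM in NC embryos (-0.03, 95% interval -0.80 to 0.73). Here the NC values enclosed the KD values. These intervals, of the fit without a block, are wide enough to hold the morula differences. The blocked fit gave smaller SEs at this stage, 0.26 for CDKN1A and 0.25 for BAX, and the statement does not extend to it.

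GADD45A was at 155 and 189 FPKM in KD 8/16-cell embryos, against 128 and 138 FPKM in NC embryos. Both KD libraries lay above both NC libraries (0.37, SE 0.37, limma adjusted p = 1). MDM2 was at 7.05 and 8.25 FPKM in KD embryos, against 6.38 and 6.19 FPKM in NC embryos, again without overlap (0.25, SE 0.24, adjusted p = 1). BBC3 was at 0.646 and 0.430 FPKM in KD embryos, against 1.23 and 1.04 FPKM in NC embryos, lower in both KD libraries (-0.47, SE 0.28, adjusted p = 1). The survival genes MCL1 (59.9 and 45.7 FPKM in KD, 60.4 and 48.9 FPKM in NC) and BCL2L1 (13.3 and 13.8 FPKM in KD, 16.9 and 13.7 FPKM in NC) overlapped. PMAIP1, at 6.58 and 7.62 FPKM in KD and 7.42 and 7.93 FPKM in NC embryos, overlapped as well.

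By limma 0 of the 8 passed here, none at an unadjusted p under 0.05, where 0.0170% of all genes passed (the 2 MIR2887 genes) and 514 had an unadjusted p under 0.05. Libraries did not overlap for 3 of 8 genes, where this held for 33.2% of all genes. The median log2 difference of the 8 was -0.04, beside 0.01 over all genes. Markers of cumulus and granulosa cells summed to 168 and 173 FPKM in KD and to 95.6 and 100 FPKM in NC 8/16-cell libraries, with 15 to 16 of 17 above 0 in either, and their part in these values was not tested. In data simulated for this comparison 15.5% of genes with a log2 change of 1 were recovered.

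The KD effects were compared between the stages by the difference of the differences. None of the 8 genes passed in limma, where 0.0170% of all genes did. For CDKN1A the difference was 1.22 (SE 0.79, adjusted p = 0.623) and for BAX -0.74 (SE 0.45, adjusted p = 0.60). BBC3, below NC at 8/16 cells and above the NC mean in morulae, had the smallest unadjusted p of the 8, 0.0448 (0.83, SE 0.37, adjusted p = 0.524). For the other 5 the adjusted p-values lay between 0.767 and 0.999. The effect of the knockdown on these genes was therefore not shown to differ between the stages.

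**Figure D3:**
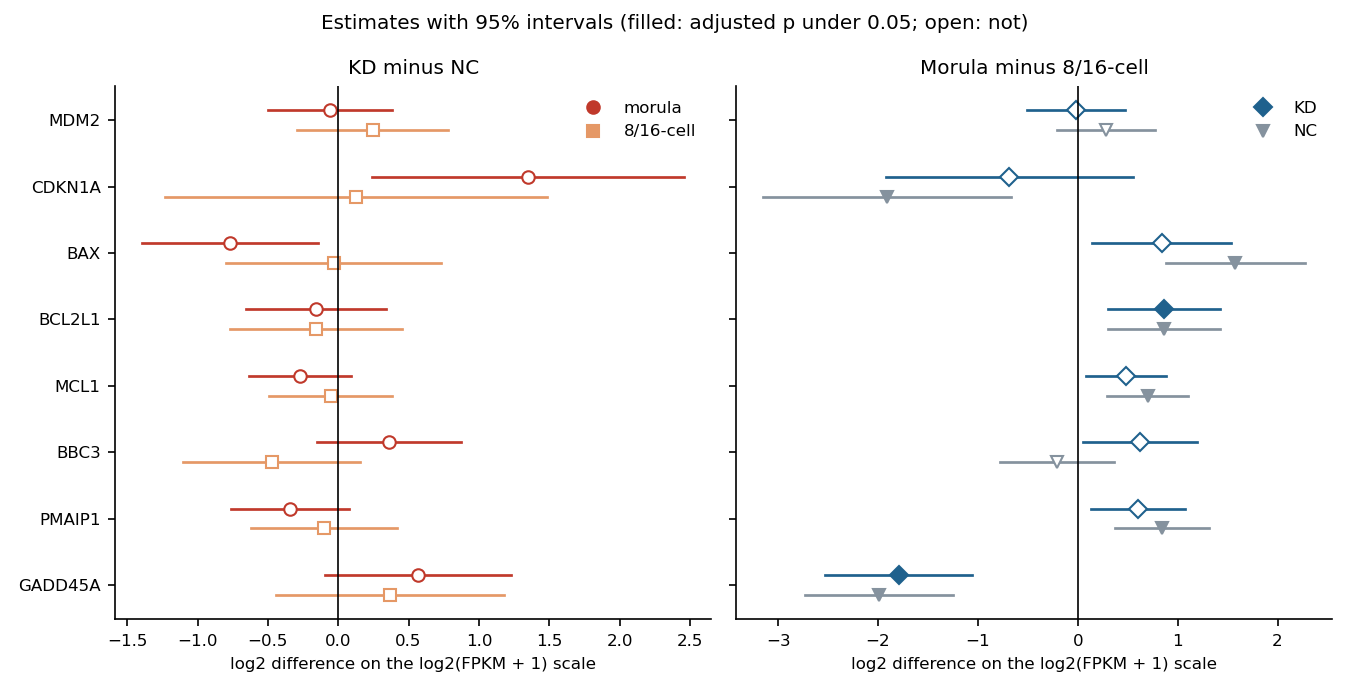
Log2 differences on the log2(FPKM + 1) scale with 95% intervals from the limma fit, for KD minus NC at both stages (left) and morula minus 8/16-cell in both treatments (right); filled symbols passed at an adjusted p under 0.05. No symbol is filled on the left, while 2 KD and 6 NC symbols are filled on the right.

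More of the 8 genes passed between the stages than between the treatments, and the same held for all genes. Between the stages 20.0% of all genes passed in KD and 30.8% in NC embryos. Between the treatments 0.697% passed in morulae and 0.0170% at 8/16 cells. In NC embryos, CDKN1A and GADD45A fell in morulae and BAX, BCL2L1, MCL1 and PMAIP1 rose, while MDM2 and BBC3 did not pass. In KD embryos GADD45A fell and BCL2L1 rose, and the other 6 did not pass. The KD and NC stage comparisons have no library in common, but the NC morulae also serve as the control of the morula comparison above.

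GADD45A averaged 51.7 ± 19.7 FPKM in KD morulae and 172 ± 24 FPKM in KD 8/16-cell embryos, a log2 change of -1.79 (SE 0.33, limma adjusted p = 0.00665). In NC it averaged 33.5 ± 9.0 FPKM in morulae and 133 ± 7 FPKM in 8/16-cell embryos (-1.99, SE 0.33, adjusted p = 0.00228). Every morula library lay below every 8/16-cell library of its treatment. CDKN1A fell in NC embryos to 4.28 ± 2.95 FPKM in morulae, against 16.5 ± 2.8 FPKM at 8/16 cells (-1.91, SE 0.56, adjusted p = 0.0265). In KD embryos it averaged 12.2 ± 7.2 FPKM in morulae and 18.7 ± 7.7 FPKM at 8/16 cells, which did not pass (-0.68, SE 0.56, adjusted p = 0.407).

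BAX rose in NC embryos to 52.9 ± 10.2 FPKM in morulae, against 17.5 ± 6.9 FPKM at 8/16 cells (log2 change 1.58, SE 0.32, limma adjusted p = 0.00488). In KD embryos it averaged 31.6 ± 12.4 FPKM in morulae and 16.5 ± 2.0 FPKM at 8/16 cells, higher in every morula library without passing (0.84, SE 0.32, adjusted p = 0.0819). BCL2L1 rose in KD (0.87, adjusted p = 0.0368) and NC embryos (0.86, adjusted p = 0.0261). MCL1 rose in NC embryos (0.70, adjusted p = 0.016) and had a difference of 0.48 in KD embryos (adjusted p = 0.0835). PMAIP1 rose in NC embryos (0.84, adjusted p = 0.0143) and had a difference of 0.60 in KD embryos (adjusted p = 0.0697).

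MDM2 differed little between the stages, at -0.02 in KD (95% interval -0.51 to 0.47) and 0.28 in NC embryos (95% interval -0.21 to 0.77). BBC3 was at 1.39 ± 0.38 FPKM in KD morulae and 0.538 ± 0.153 FPKM in KD 8/16-cell embryos, higher in every morula library (0.62, limma adjusted p = 0.11). In NC embryos its groups overlapped (-0.21, adjusted p = 0.569). That a gene passed in NC and not in KD embryos does not show that its stage change differed, and the test of that difference is the difference of differences given above.

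Among all genes, 20.0% passed between the stages in KD embryos and 30.8% in NC embryos, beside 2 and 6 of the 8 genes. Libraries of the stages did not overlap for 6 of 8 genes in KD, where this held for 53.3% of all genes, and for 7 of 8 in NC, where it held for 56.9%. The median log2 difference of the 8 was 0.54 in KD and 0.49 in NC embryos. That of all genes was -0.07 between the NC stages, and between the KD stages -0.18 as deposited and -0.02 with libraries rescaled to equal sums without MIR2887. Of the genes called there 26.1% were higher in morulae as deposited, 49.7% after rescaling and 52.2% after quantile normalization, when BAX, MCL1 and PMAIP1 passed as well. In NC embryos rescaling to equal sums ended the call of PMAIP1. MDM2 between the KD stages changed sign under both scalings, and the other stage differences of the 8 genes did not.

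Single libraries decided several stage calls. Without NC 8/16-cell replicate 2 only GADD45A passed in NC embryos, without NC 8/16-cell replicate 1 only BAX, MCL1 and GADD45A did, and without NC morula replicate 1 the calls of CDKN1A and BCL2L1 were lost (limma adjusted p = 0.0695 and 0.0738). In KD embryos GADD45A passed except without KD 8/16-cell replicate 2 (adjusted p = 0.0611). BCL2L1 in KD embryos was lost without KD morula replicate 1, either KD 8/16-cell library or either NC 8/16-cell library, with adjusted p-values of 0.0527 to 0.1465. For 75 of 81 symbols that appear on several lines, the morula columns held more distinct entries than the 8/16-cell columns, so the columns of the stages may have been made apart. The 8 oocyte markers summed to 5.87 to 15.4 FPKM in morulae and 174 to 371 FPKM in 8/16-cell embryos, and their part in the stage differences was not tested.

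Ratios between genes within a library do not depend on how that library was scaled. The ratio of CDKN1A to MDM2, both p53 targets, was 0.86, 1.66 and 2.01 in KD morulae, against 0.19, 0.52 and 0.81 in NC morulae, with no overlap. The two-sided exact permutation p was 0.10, the smallest that 3 against 3 libraries allow. At 8/16 cells this ratio was 1.88 and 2.93 in KD, against 2.90 and 2.35 in NC embryos, and the groups overlapped. It was thus lowest in the NC morulae.

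The ratio of BAX to BCL2L1, a pore former over one of its inhibitors, was 1.38, 1.17 and 1.04 in KD morulae, against 1.40, 2.66 and 1.65 in NC morulae. Every KD value was below every NC value, although replicates 1 were nearly equal (exact permutation p = 0.10, the smallest possible). In 8/16-cell embryos it was 1.35 and 1.09 in KD and 1.32 and 0.92 in NC libraries, which overlapped. BAX to MCL1 averaged 0.42 ± 0.14 in KD and 0.60 ± 0.12 in NC morulae and overlapped (exact permutation p = 0.20). MCL1 to PMAIP1, a guardian over the BH3-only protein that binds it, averaged 6.52 ± 0.44 in KD and 6.18 ± 1.06 in NC morulae (exact permutation p = 0.80) and 7.55 ± 2.19 in KD and 7.15 ± 1.40 in NC 8/16-cell embryos, with overlap at both stages.

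**Figure D4:**
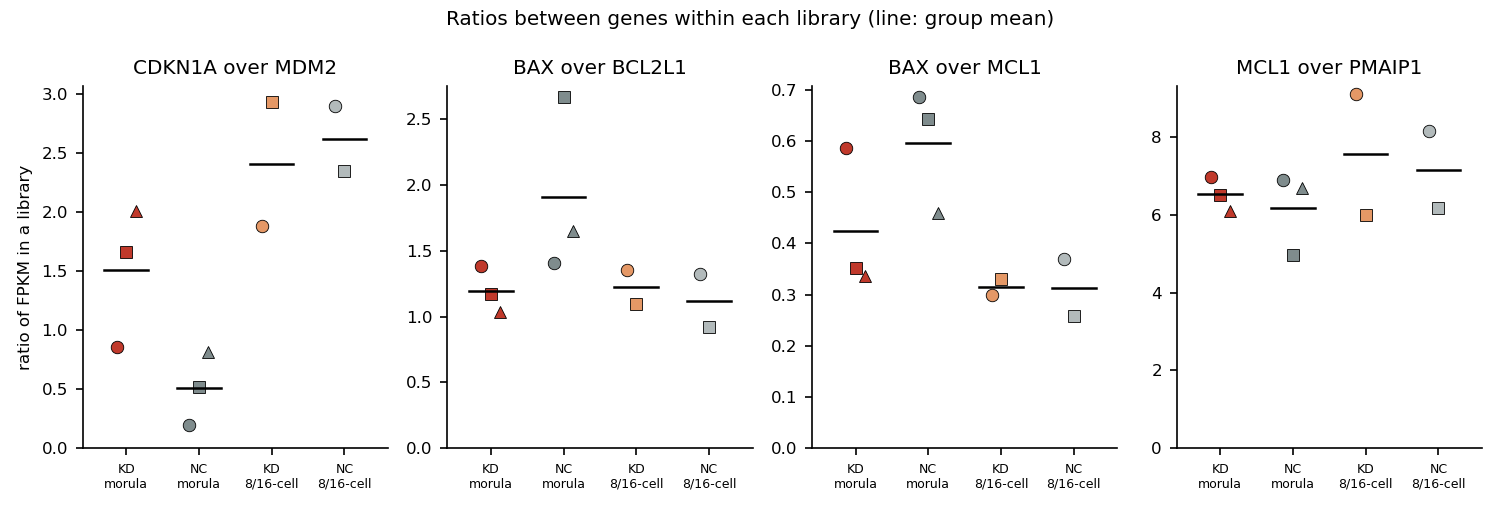
Ratios of FPKM between pairs of genes in each library, on linear axes from 0; points are libraries, shapes are replicate numbers and lines are group means. CDKN1A over MDM2 averaged 1.51 in KD and 0.51 in NC morulae, BAX over BCL2L1 1.195 in KD and 1.90 in NC morulae, and the other ratios overlapped between the treatments in morulae.

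Across all 10 libraries, likeness of pattern was measured as the root mean square difference of log2(FPKM + 1) after centring each gene on its own mean. Among the 8, MCL1 and PMAIP1 were nearest to each other (0.21), and GADD45A and BAX farthest apart (1.73). CDKN1A and GADD45A were each other's nearest of the 8 (0.54). Over all genes tested, those nearest to CDKN1A were HSPA1A (0.27), APC2 (0.29) and MLLT11 (0.29), beside a median of 1.06 over all genes. Those nearest to GADD45A were E2F1 (0.18), ELL2 (0.19) and KLHL26 (0.20), with a median of 1.02.

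The genes nearest to BAX were TBC1D4 (0.20), LOC104975635 (0.21) and SH3BGRL2 (0.22), with a median of 0.83. BCL2L1 was most like GOT1 (0.11) and FAM234A (0.12), and MCL1 most like CRK (0.10), LOC520104 (0.11) and ZNF24 (0.12). PMAIP1 was most like CCHCR1 (0.13), RAP1A (0.13) and XPC (0.13), the last of which is a DNA repair gene and p53 target. MDM2 was most like ALPK3 (0.11), LOC101903385 (0.13) and MINPP1 (0.14), and BBC3 most like DZIP1L (0.14), KCNIP2 (0.15) and UGDH (0.15). MDM2 and BBC3 had the smallest SDs of the 8 on that scale over the 10 libraries, 0.21 and 0.30. For BBC3, which ran from 0.430 to 1.79 FPKM, the added 1 FPKM compresses the spread, so its SD does not show a stable level.

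The rest of the pathway was described by 8 further lists with 90 genes, of which 89 were in the table and 78 were tested. In morulae 1 of the 78 passed in KD against NC: PERP, a p53 target that builds desmosomes, fell to 6.23, 3.69 and 1.71 FPKM in KD morulae, against 23.0, 14.7 and 16.9 FPKM in NC morulae (-2.07, SE 0.34, limma adjusted p = 0.0377, blocked 0.00308). All KD values were below all NC values. Its unblocked call was kept without KD morula replicate 1 or NC morula replicate 2 and lost without any other library (adjusted p up to 0.151), while the blocked fits without number 1, 2 or 3 kept it. It was lost as well without a filter on low values (adjusted p = 0.102), with equal sums (0.0669), with morulae alone (0.151) and with RN18S1 as a covariate (0.31). In the blocked fit 2 passed as higher (PLK2 and TP53BP1) and 6 as lower (PERP, COP1, BNIP3L, HTRA2, CASP6 and CYCS), so 8 of 78, a share no higher than the 11.9% of all genes. In blocked fits without the libraries of number 1, 2 or 3, PLK2 passed each time, as PERP did. TP53BP1, BNIP3L, CASP6 and CYCS passed only without number 2, with adjusted p-values of 0.0506 to 0.135 without number 1 or 3. COP1 (0.122 to 0.134) and HTRA2 (0.0982 to 0.154) passed in none of these fits. The median log2 difference of the 78 genes was 0.03, beside -0.08 over all genes tested. At the 8/16-cell stage 0 of 78 passed in limma, with 2 at an unadjusted p under 0.05. The genes named below for KD against NC morulae include the 3 of each list with the smallest p.

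Of the 17 genes in the list of p53 regulators, 12 had a negative difference in morulae (median -0.19) and none passed without a block. Over all genes tested, 6812 of 11761 had a negative difference. COP1, a ubiquitin ligase for p53, averaged 9.97 ± 1.29 FPKM in KD and 15.4 ± 1.4 FPKM in NC morulae (-0.59, limma adjusted p = 0.0772, blocked 0.033). TP53BP1, a DNA damage adaptor that binds p53, averaged 31.4 ± 6.7 FPKM in KD and 17.9 ± 3.6 FPKM in NC morulae (0.77, adjusted p = 0.0843, blocked 0.0121). The checkpoint kinase CHEK1 had a difference of -0.42 (adjusted p = 0.137, blocked 0.0656).

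Of 26 further p53 target genes 20 were tested, and 12 of these had a positive difference in morulae (median 0.09), so these targets did not lie to 1 side. Over all genes tested, 4939 of 11761 had a positive difference. PLK2, a kinase of the centrosome cycle and stress response, was at 33.7, 46.3 and 47.1 FPKM in KD morulae, against 16.2, 24.7 and 23.7 FPKM in NC morulae. All KD libraries were above all NC libraries (0.95, SE 0.20, limma adjusted p = 0.0617, blocked 0.00495). XPC had a difference of -0.34 (adjusted p = 0.216). FAS, the death receptor, DDB2, EDA2R, GDF15, SPATA18 and TNFRSF10D averaged under 1 FPKM and were not tested.

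Among the 9 other pro-apoptotic BCL2 genes tested, 4 differences were positive and 5 negative. BNIP3L, a mitophagy receptor, averaged 43.5 ± 7.5 FPKM in KD and 73.8 ± 12.4 FPKM in NC morulae, with no overlap (-0.75, limma adjusted p = 0.0841, blocked 0.0141). The BH3-only genes BCL2L11 (BIM, 0.56, adjusted p = 0.222) and BIK (0.78, adjusted p = 0.316) did not pass in either fit. BAK1, the second pore former, averaged 38.3 ± 1.7 FPKM in KD and 41.1 ± 6.5 FPKM in NC morulae (-0.09, adjusted p = 0.911). Of the 4 other guardians only BCL2L10 (0.20) and BCL2L2 (0.09) were tested, and neither passed.

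Downstream of the pore, 9 of 15 tested caspases and activators had a negative difference in KD morulae (median -0.27) and none passed without a block. Over all genes tested 6812 of 11761 were negative, a share close to that of this list. CYCS, the cytochrome c that leaves mitochondria through the pore and otherwise carries electrons in respiration, averaged 265 ± 47 FPKM in KD and 418 ± 72 FPKM in NC morulae (-0.66, limma adjusted p = 0.112, blocked 0.016). The effector caspase CASP6 averaged 26.5 ± 3.8 FPKM in KD and 46.6 ± 13.4 FPKM in NC morulae (-0.76, adjusted p = 0.106, blocked 0.0231). HTRA2, a mitochondrial protease, averaged 5.86 ± 0.79 FPKM in KD and 10.03 ± 0.59 FPKM in NC morulae (-0.69, adjusted p = 0.0724, blocked 0.0301). For all 3 genes the groups did not overlap.

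The inhibitors of caspases BIRC3 (0.41), BIRC2 (-0.40) and BIRC6 (-0.20) did not pass in either fit. Of the 7 other inhibitors of cyclin-dependent kinases 5 had a positive difference, where 4939 of all 11761 genes tested did. CDKN2C was at 0.44, CDKN2D at 0.29 and CDKN1B at -0.24, none of which passed in either fit. The paralogs of GADD45A lay on the same side as it did in morulae. GADD45B averaged 26.2 ± 3.7 FPKM in KD and 18.6 ± 2.2 FPKM in NC morulae, with no overlap (0.47, limma adjusted p = 0.188, blocked 0.058), and GADD45G 3.83 ± 2.25 FPKM in KD and 2.13 ± 1.01 FPKM in NC morulae (0.57, adjusted p = 0.407). GADD45GIP1, a protein of the mitochondrial ribosome, had a difference of 0.06.

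**Figure D5:**
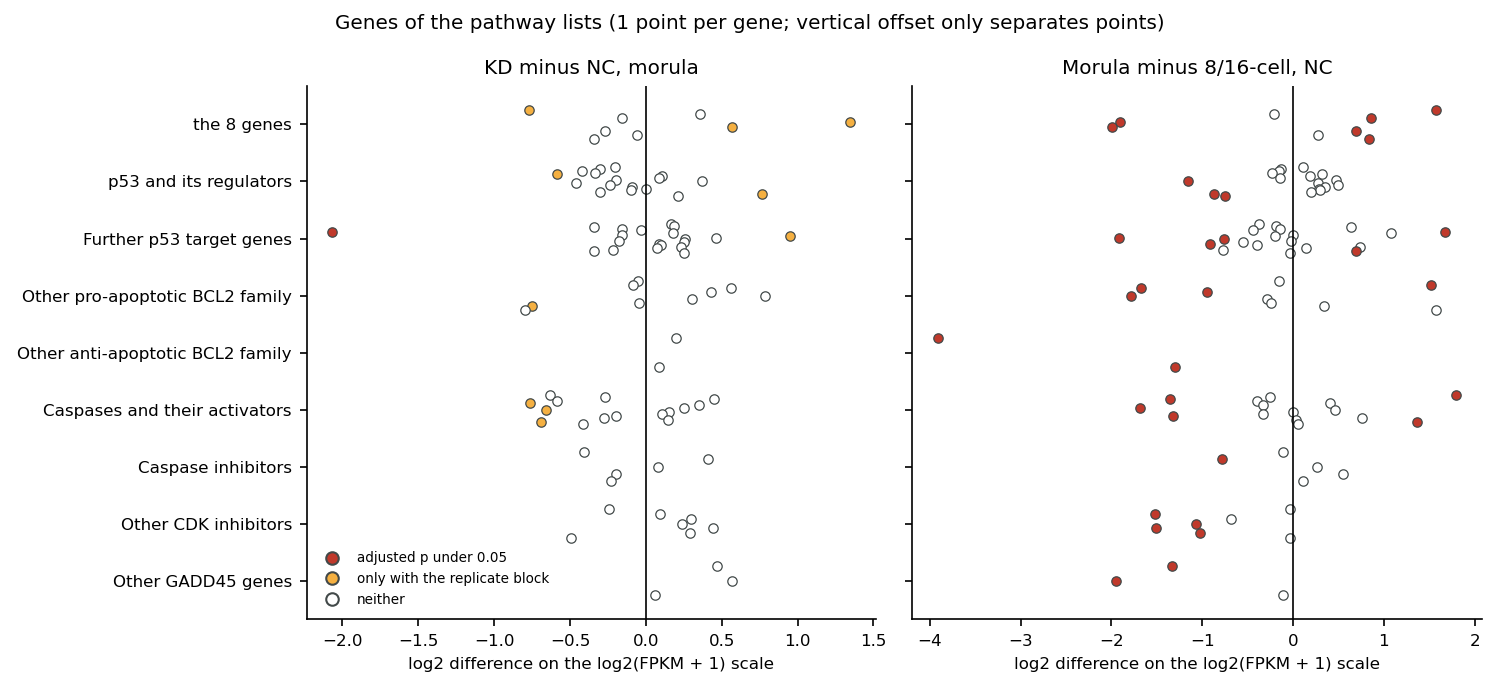
Log2 differences of the 8 genes and of the tested genes of 8 pathway lists, for KD minus NC in morulae (left) and morula minus 8/16-cell in NC embryos (right); red points passed at an adjusted p under 0.05, and orange points only with the replicate number as a block, which applies to the left panel. PERP is the only red point on the left, while 26 list genes and 6 of the 8 are red on the right.

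Between the stages 20 of the 78 list genes passed in KD embryos, 4 higher and 16 lower in morulae, and 26 in NC embryos, 5 higher and 21 lower. Of all genes 20.0% passed in KD (614 higher and 1741 lower) and 30.8% in NC embryos (1484 higher and 2142 lower). The median differences were -0.25 in KD and -0.15 in NC embryos, beside -0.18 and -0.07 over all genes. The genes named here were chosen after their values were seen. BCL2L10, a guardian known from oocytes, fell to 1.70 ± 0.97 FPKM in KD morulae, against 21.1 ± 3.0 FPKM in KD 8/16-cell embryos (-3.09, limma adjusted p = 0.00154). In NC embryos it fell to 1.34 ± 0.87 FPKM in morulae, against 34.7 ± 16.8 FPKM at 8/16 cells (-3.91, adjusted p = 0.000277). Both calls were kept whichever library was left out.

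GADD45B (-0.76 in KD, -1.33 in NC) and GADD45G (-1.39 in KD, -1.95 in NC) passed as lower in both treatments. The BIM gene BCL2L11 (-0.96 in KD, -1.68 in NC) and DIABLO, which releases caspases from inhibition (-1.33 in KD, -1.32 in NC), did so as well. With equal sums or quantile normalization the KD calls of GADD45B (adjusted p = 0.203 and 0.112), GADD45G (0.112 and 0.0566) and BCL2L11 (0.101 and 0.0801) were lost, while that of DIABLO and the NC calls of all 4 genes were kept. Without a filter on low values the KD calls of GADD45G (0.0933), BCL2L11 (0.0671) and BAK1 (0.0972) were lost. The calls of DIABLO were kept without any single library, and so were those of GADD45B and BCL2L11 in NC embryos. In KD embryos GADD45B passed in 7, BCL2L11 in 5 and GADD45G in 4 of the 10 fits that left out a library. BAK1 rose in KD (1.28) and NC embryos (1.52). Its KD call passed in 2 of those 10 fits, with differences of 0.47 without KD 8/16-cell replicate 2 and 2.09 without KD 8/16-cell replicate 1, and its NC call was lost without NC 8/16-cell replicate 2 (adjusted p = 0.149). That of GADD45G in NC embryos was lost without NC 8/16-cell replicate 1 (adjusted p = 0.0606). All 7 other inhibitors of cyclin-dependent kinases had a negative difference in both treatments. Over all 11761 genes tested, 7346 in KD and 6368 in NC embryos were negative. Of the 7, 3 passed as lower in KD and 4 in NC embryos, beside 1741 and 2142 of all genes. Among those passing in both was CDKN1C (-1.61 in KD, -1.52 in NC, each passing in 7 of the 10 fits). Its calls were lost without a filter (adjusted p = 0.0646 in KD and 0.0569 in NC), and in KD with equal sums (0.0654).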

How the data were processed

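The members and lists were chosen with earlier results of these data known. Poly(A) RNA libraries were made from embryos by oligo(dT) selection and PCR, per the labels' protocols; strand is not stated. The deposited values are FPKM, made by the authors. The tools Cufflinks, featureCounts, HISAT2 and Trimmomatic and the builds ARS-UCD1.2 and bosTau9 are named, per the submitters' processing notes, without versions or roles. All 10 columns were matched to samples by stage, treatment and replicate. Of 28781 symbols, 81 on several lines were left out.

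Values were transformed to log2(FPKM + 1), which understates changes of low genes. Genes averaging 1 FPKM or more (11761) were fitted with limma 3.58.1 in R 4.3.3 (limma-trend, 4 group means, 6 residual and 4.63 prior degrees of freedom). Benjamini-Hochberg adjustment of the two-sided p-values ran over these genes, with a threshold of 0.05. The test was tried on simulated data.

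Across genes, deviations from the group mean were correlated between the KD and NC morula libraries of each number (0.37, 0.325 and 0.312), so the numbers were taken as pairs there; a blocked fit is given beside results it changes. The labels do not say what a number marks. At the 8/16-cell stage the correlation was 0.0558. The blocked fit nevertheless held terms for the numbers at this stage too, with 3 residual and 5.76 prior degrees of freedom over both stages.

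Named genes were the 8 members, H1FOO, list genes that passed for KD against NC, otherwise up to 3 per list by smallest p in morulae, and the 3 genes of most similar pattern; some of these are not reported here. Alternatives were another pseudocount (0.1), no filter or a mean of at least 5 FPKM, equal library sums without MIR2887, quantile normalization, single stages, the block, and leaving out each library; the RN18S1 covariate and blocked fits without 1 number were added after the data were seen. No raw counts were analysed here.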

Additional observations from a re-analysis of the deposited data

How the results depend on the processing

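None of the 8 genes passed for KD against NC at 8/16 cells, or for the difference of the KD effects, under any alternative run. For KD against NC in morulae the members passing were 3 with the replicate block, 2, 1 and 1 in blocked fits without number 1, 2 or 3, 0 to 1 when a library was left out and 0 otherwise. Between the KD stages they were 1 without a filter, 5 after quantile normalization and 0 to 3 when a library was left out, and between the NC stages 1 to 6. BBC3 fell under 1 FPKM in 4 of the 10 fits that left out a library and with a mean of at least 5 FPKM, which gave no value.

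Of all genes, 82 passed in morulae, against 62 with a pseudocount of 0.1, 6 without a filter, 139 at a mean of at least 5 FPKM, 9 with equal sums, 1398 with the replicate block, 411, 631 and 301 in blocked fits without number 1, 2 or 3, 0 to 619 without a library, and 0 with morulae alone (2131 unadjusted) or the RN18S1 covariate (1243 unadjusted). At 8/16 cells 2 passed, against 11 without a filter, 0 with equal sums (412 unadjusted), 1 with that stage alone, 4 with RN18S1 and 2 to 9 without a library; there the numbers share only a number (correlation 0.0558), and the replicate block gave 3. For the difference of effects the count was 0 with equal sums (825 unadjusted), 32 with the block and 2 to 6 without a library. Between stages it was 1330 with equal sums and 705 to 2755 without a library in KD, and 1416 to 3693 in NC embryos. The cause was not tested.

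Signs of small differences turned. In morulae MDM2 was 0.051 after quantile normalization, 0.027 in the blocked fit without number 2 and -0.22 to 0.078 without a library; BCL2L1 was 0.078 with RN18S1 and -0.34 to 0.063 without a library. At 8/16 cells, leaving out a library gave -0.29 to 0.53 for CDKN1A, -0.42 to 0.36 for BAX and -0.25 to 0.14 for MCL1. The difference of effects ran from -0.18 to 0.22 for BCL2L1 and -0.033 to 0.56 for GADD45A. MDM2 between KD stages was 0.14 with equal sums, 0.16 after quantile normalization and -0.19 to 0.11 without a library. In all, 599 of 653 values of the 8 genes kept their direction and side of the threshold. Most of these were of differences that had not passed. Of 15 alternatives for each stage call, BCL2L1 in KD was lost in 6 and CDKN1A in NC in 4. BCL2L1 and PMAIP1 in NC were each lost in 3. GADD45A in KD and BAX and MCL1 in NC were each lost in 1, and GADD45A in NC in 0. The unknown depth limits the lowest gene, BBC3, most.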
